A study of Macaca mulatta with 24 samples.

Results

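The genes described here encode enzymes and carriers of fatty acid oxidation, of the conversion of pyruvate to acetyl-CoA and of the tricarboxylic acid (TCA) cycle. Most of the proteins are mitochondrial, but the list also holds the cytosolic forms *ACO1*, *IDH1* and *MDH1* and the peroxisomal *ACAA1*, which are counted with the steps they share. They were chosen by name, as a list of 40 genes written from general knowledge of the pathway, with earlier results of these data known. Each was matched to an Ensembl identifier in the count table. Of the 40 genes, 38 were matched and all 38 passed the filter on low counts, out of 32386 genes listed and 15207 tested. The other two, *ACADL* and *ACAT1*, were not matched to an identifier and have no values here.

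Long-chain fatty acids enter the mitochondrion as carnitine esters and are shortened by repeated rounds of oxidation, hydration, oxidation and thiolysis, and each round yields acetyl-CoA and reduced electron carriers. Acetyl-CoA, which the pyruvate dehydrogenase complex also makes from pyruvate, enters the TCA cycle at citrate synthase. White fat stores lipid and exports much of the citrate it makes for fatty acid synthesis, whereas brown and beige adipocytes oxidize fatty acids to make heat with the uncoupling protein UCP1.

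RNA was sequenced from biopsies of omental white adipose tissue (WAT), a visceral fat depot, of 24 young adult female rhesus macaques, 6 in each of 4 groups. The controls (*C*) carried cholesterol implants and ate monkey chow, the *T* group carried testosterone implants on the same chow, the *WSD* group carried cholesterol implants and ate a high-fat Western-style diet, and the *T* + *WSD* group had both treatments. Treatment lasted 3 years, and the labels give an age of 4 years for the animals, whereas the study's methods give an older one. The study chose these animals as typical of their groups in fat mass and insulin, so they are not a random draw from each group.

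The libraries held 6899185 to 28270776 counts each (median 20630512.5). In 8 libraries, 2 in each group, 1 gene without a symbol took 9.92% to 54.7% of the counts. It took 0.879% to 2.51% in the other 16. The 8 libraries, set apart by a share over 5%, are called the library batch below (*C* 1 and 2, *T* 13 and 14, *WSD* 19 and 20, *T* + *WSD* 7 and 8). The labels name no batch. Levels are given in CPM, the count of a gene per 1000000 counts of its TMM-scaled library. Each comparison was a contrast in edgeR's quasi-likelihood fit to all 24 animals, and a gene passed at a Benjamini-Hochberg adjusted p under 0.05 over all 15207 tested genes, or under 0.1 for the interaction of testosterone and diet. A gene that passed with a fold change over 1.5 was a DEG. The summed level of 6 of the 7 listed adipocyte markers was 1231 CPM in *C* 1 and at least 3457 CPM in every other animal. Not all 6 were high: *FABP4* lay between 0.937 CPM (*WSD* 21) and 3.26 CPM (*T* + *WSD* 9). In bulk tissue, fewer cells of a type and less RNA per cell cannot be told apart.

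The members stood highest in *WSD*, and their mean level in *T* + *WSD* was close to that of *C*. Group means were highest in *WSD* for 33 of the 38 genes and in *T* for the other 5 (*CPT1A*, *CPT1B*, *HADH*, *ACAA2* and *IDH1*), and neither *C* nor *T* + *WSD* had the highest mean of any. Over all tested genes, *WSD* had the highest mean in 21.7%. The lowest mean was that of *T* + *WSD* in 21 genes, of *C* in 16 and of *WSD* in 1, *CPT1A*.

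Averaged over the 38 genes, as log2 CPM minus each gene's mean over all animals, the level was -0.17 ± 0.36 (SD, n = 6) in *C*, from -0.85 to 0.21 with a median of -0.07. It was 0.06 ± 0.27 (SD, n = 6) in *T*, from -0.32 to 0.50 with a median of 0.02. It was 0.27 ± 0.41 (SD, n = 6) in *WSD*, from -0.15 to 0.89 with a median of 0.08. The 6 *T* + *WSD* animals lay between -0.20 and -0.08, at -0.16 ± 0.04 (SD, n = 6), inside the range of *C* and below all but 1 of the *T* animals and below all *WSD* animals but *WSD* 19.

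**Figure D1:**
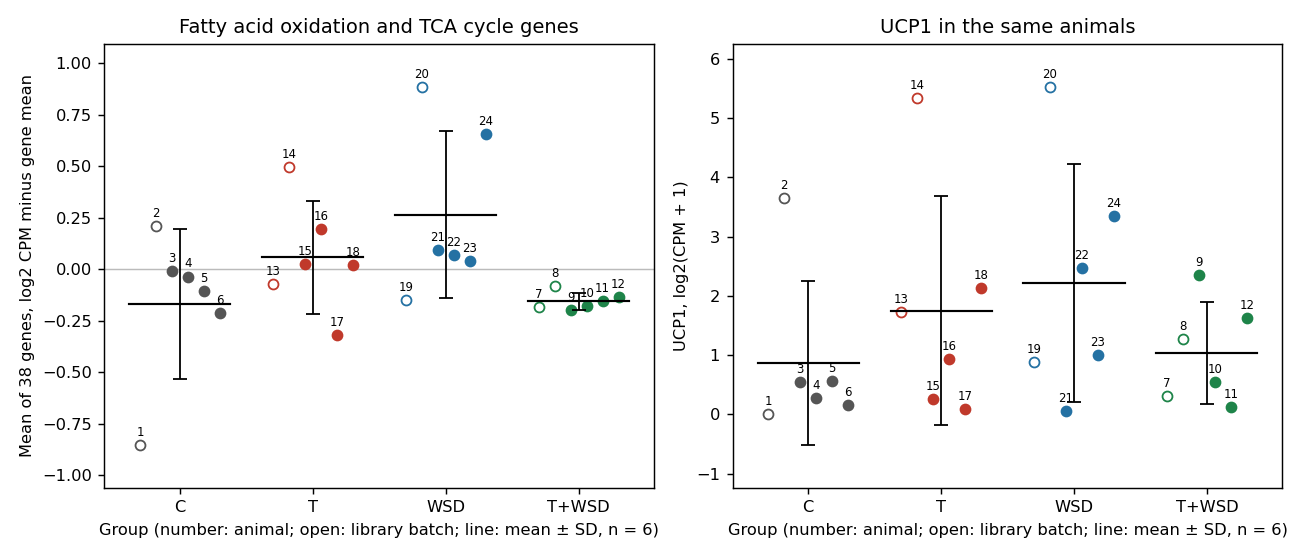
Left, the mean of the 38 genes in each animal (log2 CPM minus each gene's mean over 24 animals); right, UCP1 in the same animals as log2(CPM + 1). Points are animals with their numbers, open points are the library batch, and lines and bars are group means ± SD (n = 6); WSD 20, WSD 24, T 14 and C 2 are the highest in both panels, and the 6 T+WSD animals lie within -0.20 and -0.08 on the left.

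A few animals carried most of this spread. *WSD* 20 was the highest of all 24 animals in 26 of the 38 genes and *WSD* 24 in 4, and their means were 0.89 and 0.65, while the other *WSD* animals lay between -0.15 and 0.09. *C* 1 was the lowest of all 24 animals in 32 genes, at a mean of -0.85. The next lowest *C* animal was at -0.21.

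UCP1, the marker of brown and beige adipocytes, was at 45.0 CPM in *WSD* 20, 39.5 CPM in *T* 14, 11.5 CPM in *C* 2 and 9.15 CPM in *WSD* 24. These are also the 4 animals with the highest means of the 38 genes. Of these, *C* 2, *T* 14 and *WSD* 20 are in the library batch. In *T* + *WSD*, UCP1 lay between 0.0860 and 4.08 CPM, and *C* 1 had a count of 0, which allows up to 3 counts. Over 4 of the 5 brown and beige markers, the summed level was 23.4 to 81.7 CPM in *C*, 52.3 to 140 CPM in *T*, 62.7 to 218 CPM in *WSD* and 54.0 to 74.3 CPM in *T* + *WSD*, with *DIO2* at or under 3 counts in every group. By animal, the sum was highest in *WSD* 20, *T* 14 and *WSD* 24 (218, 140 and 112 CPM). In *C* 2 it was 80.9 CPM, below *C* 3 (81.7 CPM) and *WSD* 21 (87.5 CPM). *PPARGC1A* was at 26.9 CPM in *WSD* 24 and 19.2 CPM in *C* 2, both below *C* 3 (29.9 CPM). This marker is also among the regulators described below, and the part of such cells in the results was not tested.

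*C* 1, the lowest animal, also had the lowest adipocyte sum, 1231 CPM against 3457 CPM or more in the other *C* animals. It had the highest sum of 8 of the 9 mesothelial markers, genes of the cells that cover the omentum, at 38604 CPM, against at most 17442 CPM in any animal of the other groups. The mesothelial sum lay between 231 and 3014 CPM in *T* + *WSD* and 691 and 5905 CPM in *WSD*. It lay between 2737 and 17442 CPM in *T* and 2691 and 38604 CPM in *C*. In *T* + *WSD* against *C*, 7 of the 8 genes were lower past the threshold, where 9.94% of all tested genes were. Median sums of some other cell markers were higher in *T* + *WSD* than in *C*. In this comparison 7.18% of all tested genes were higher past the threshold. The endothelial sum was 1699 to 2700 CPM in *T* + *WSD*, above every *C* animal (925 to 1553 CPM), and 4 of its 6 genes were higher past the threshold. The smooth muscle and pericyte sum was 982 to 1502 CPM against 551 to 1119 CPM in *C*, with 2 of 5 genes higher, and the skeletal muscle sum 27.4 to 78.0 CPM against 20.9 to 32.2 CPM, with 1 of 5. In *WSD* these sums were 1287 to 2069, 425 to 1046 and 13.3 to 33.9 CPM. The adipocyte sum was 4861 to 8845 CPM (median 6798) in *T* + *WSD* and 1231 to 6251 CPM (median 3942) in *C*. It was 3698 to 7884 CPM (median 5802) in *T* and 4065 to 7534 CPM (median 5794) in *WSD*. Where a marker sum differs between groups, a fit with that covariate cannot tell group and cell content apart. The part of cell composition in the differences below was not tested beyond the covariate fits given with them.

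Animals of *T* + *WSD* resembled each other in these genes more than animals of any other group did. The SD between animals, on the log2 scale, was the smallest in *T* + *WSD* for 36 of the 38 genes (94.7%), against 50.2% of all tested genes. The median SD over the 38 genes was 0.14 in *T* + *WSD*, 0.32 in *T*, 0.41 in *C* and 0.48 in *WSD*, and over all tested genes it was 0.22, 0.29, 0.34 and 0.33 in the same order. No test was made of this difference in spread.

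**Figure D2:**
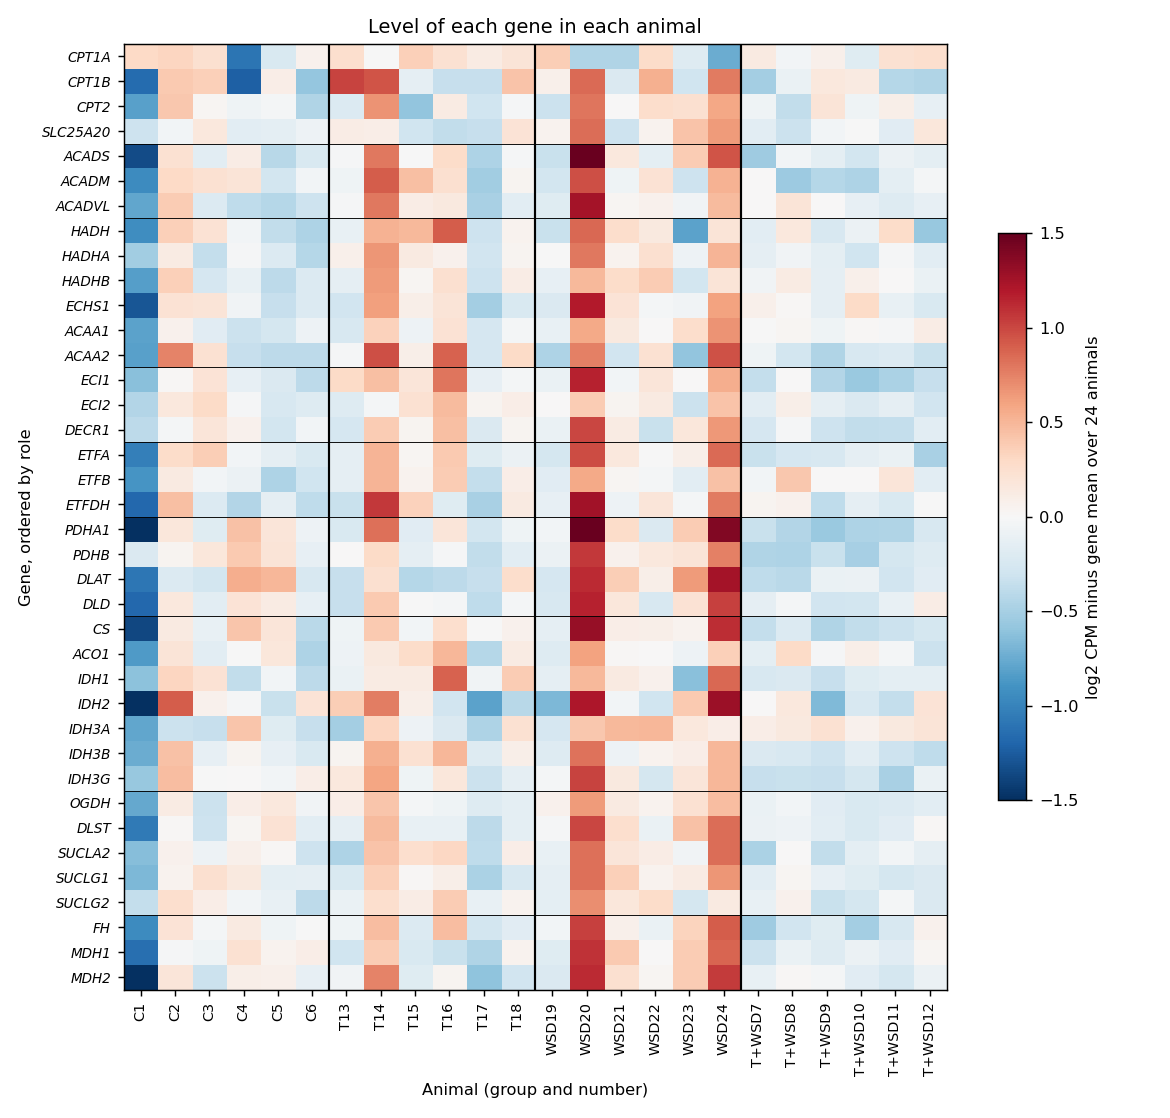
Each row is 1 of the 38 genes, grouped by role from the carnitine shuttle (top) to the malate steps (bottom), and each column is 1 animal; color is log2 CPM minus the gene's mean over 24 animals, red above and blue below. C 1 is blue in nearly every row, WSD 20, WSD 24 and T 14 are red in most, and the 6 T+WSD columns are pale.

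Western-style diet alone was compared with control. Of the 38 genes, 37 were higher in *WSD* and 1, *CPT1A*, was lower, and the median log2 fold change was 0.45, against -0.02 over all tested genes. None passed the test, as none of the 15207 tested genes did (0%). The smallest adjusted p was 0.131 (edgeR), for *ACAA1*, the peroxisomal thiolase. At an unadjusted p under 0.05, 24 genes were higher and none lower, against 9.59% of all tested genes higher and 8.87% lower. These shares cover genes of a single pathway measured in the same animals, so they are not independent counts. They also rest on a spread estimate shared with *T* + *WSD*, the group of smallest spread. In the fit to the compared groups alone, 1809 of 14512 tested genes had an unadjusted p under 0.05, against 2807 of 15207 here. DESeq2 passed *ACAA1* alone of the 38, where it passed 188 genes higher and 201 lower of 25048. The median fell to 0.30 without *WSD* 20, with 8 genes at p under 0.05, to 0.36 without *WSD* 24 (12 genes) and to 0.36 without *C* 1 (15 genes), and *ACAA1* passed without *WSD* 19. In the 16 libraries outside the batch it was 0.35 with 12 genes, with the adipocyte markers as a covariate it was 0.24 with 4 genes, and with the mesothelial markers it was 0.39 with 11 genes.

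By role, the 3 acyl-CoA dehydrogenases matched, which make the first oxidation of each round, had a median log2 fold change of 0.60, led by *ACADS* at 0.78 ± 0.27 (SE). The 4 pyruvate dehydrogenase complex genes had a median of 0.61 and the 3 fumarate and malate genes, *FH*, *MDH1* and *MDH2*, one of 0.58. In the carnitine shuttle, *CPT1A* and *CPT1B* encode isoforms of its malonyl-CoA-regulated gate. *CPT1A* was at -0.15 ± 0.20 (SE), whereas *CPT1B*, the isoform best known from muscle and brown fat, was at 0.57 ± 0.31 (SE). *ACADS*, *CPT1A*, *CPT1B* and *ACAA1* were singled out after their values were seen.

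*ACAA1* lay between 39.98 and 69.1 CPM in *WSD* (median 50.01) and between 24.9 and 45.1 CPM in *C* (median 37.2), so that the groups overlapped. *CPT1A* lay between 81.2 and 176 CPM in *WSD* (median 110), with the lowest value in *WSD* 24, and between 63.6 and 170 CPM in *C* (median 152). It lay between 135 and 175 CPM in *T* (median 158) and between 120 and 162 CPM in *T* + *WSD* (median 146). *C* 4 had the lowest *CPT1A* of all and the lowest mean over the 4 carnitine shuttle genes in *C*, -0.63, yet the highest mean in *C* over the pyruvate dehydrogenase complex genes, 0.39.

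Testosterone was then compared with control on chow. In *T*, 34 of the 38 genes were higher than in *C* and 4 lower, with a median log2 fold change of 0.19, from -0.14 for *PDHB* to 0.58 for *CPT1B*. None passed the test (0% of all tested genes), and 3 genes were higher at an unadjusted p under 0.05, against 3.54% of all tested genes higher and 5.08% lower. Without *C* 1 or *C* 6 that number was 0, without *C* 2 it was 12, without *T* 17 it was 7, without *T* 14 it was 1, and outside the library batch 23 genes were higher and 15 lower, with a median of 0.09. Averaged over both diets, testosterone gave 7 genes higher and 31 lower, with a median of -0.12, none past the threshold and 6 lower at an unadjusted p under 0.05 (10.1% of all tested genes lower and 6.4% higher). That number was 12 without *C* 1, 9 without *T* 14 or *WSD* 22, and 2 without *C* 2, *C* 4, *T* 13, *T* 17, *WSD* 20 or *WSD* 24. DESeq2 passed no gene in *T* and 1, *PDHB*, in the averaged comparison.

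Under the combined treatment, the mean level of the members was close to that of *C*, which includes the low animal *C* 1 (-0.85). The median over animals was -0.17 in *T* + *WSD* and -0.07 in *C*. In *T* + *WSD* against *C*, 17 members were higher and 21 lower. Their median log2 fold change was -0.06 against -0.04 over all tested genes, and the range was -0.45 to 0.36. None passed the test in a comparison in which 17.1% of all tested genes did (7.18% higher and 9.94% lower, 10% as DEGs). At an unadjusted p under 0.05, *PDHB* was lower and *IDH3A* higher (18.4% and 13.7% of all tested genes). DESeq2 also passed none, while *PDHB* passed in the fit to the compared groups alone, with at least 10 counts in every animal and with legacy=FALSE, and 1 gene passed in 6 of the 24 fits that left out an animal. No gene had all 6 *T* + *WSD* animals above or below every *C* animal (3.49% and 4.12% of all tested genes). Leaving out 1 animal moved the median log2 fold change to between -0.13 and 0.06, with 10 to 24 genes higher. With the adipocyte markers as a covariate, the median was -0.39, with 35 of the 38 genes lower, and with the mesothelial markers it was -0.22, with 31 lower. Both marker sums differed in median between these groups, so these fits cannot tell group and cell content apart.

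**Figure D3:**
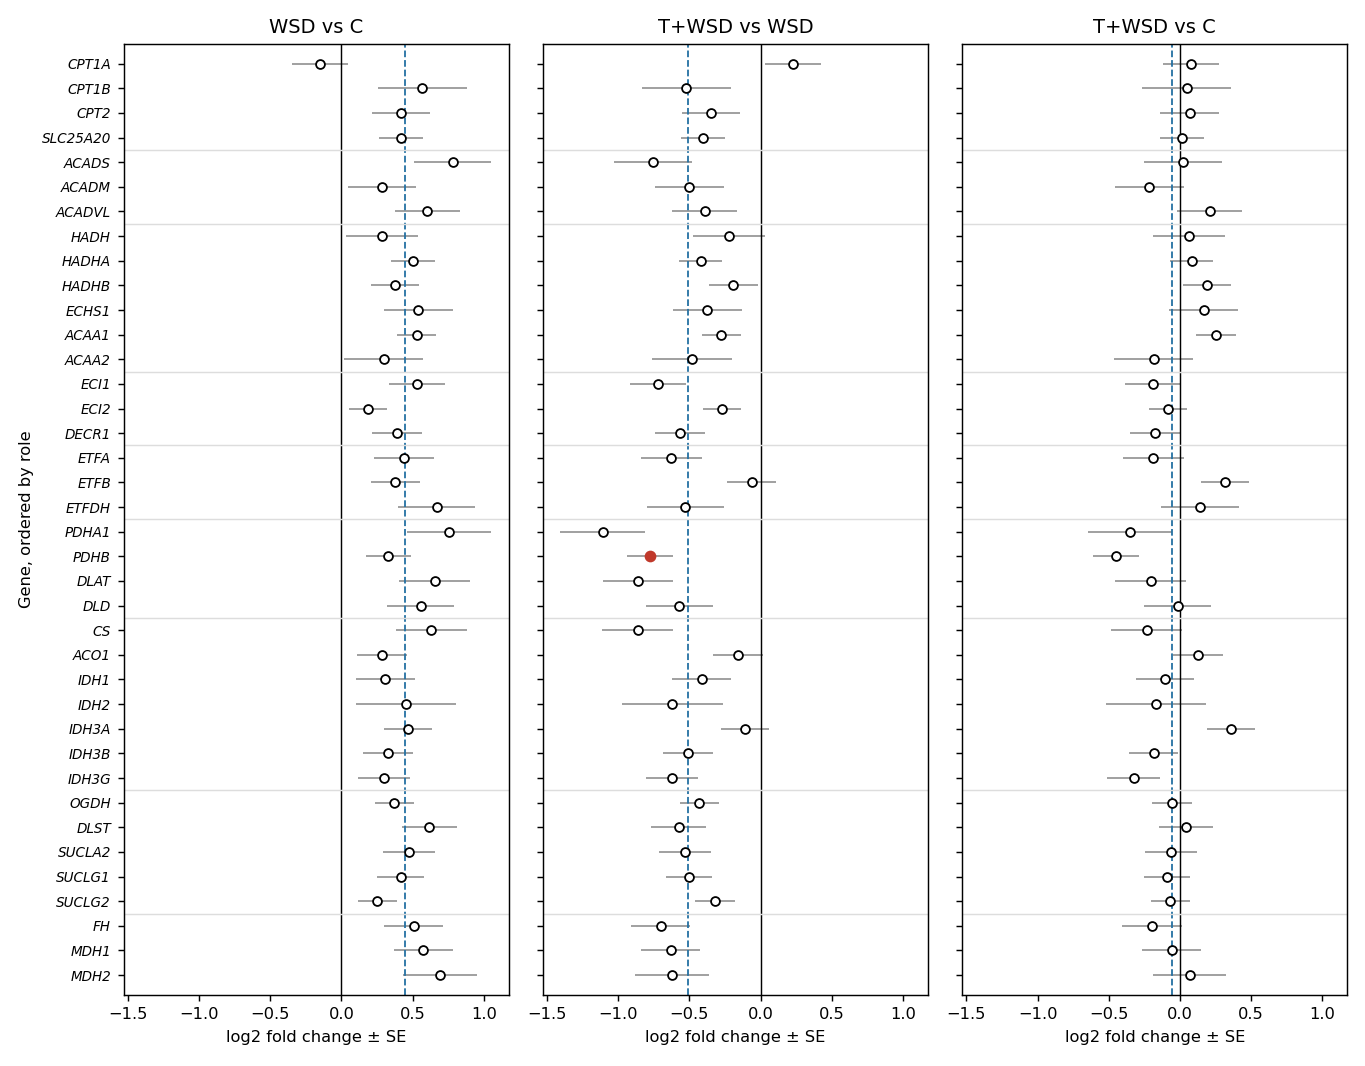
Log2 fold change of each of the 38 genes (point) with its SE (line) in 3 comparisons, genes ordered by role; the filled point passed the test (PDHB, T+WSD vs WSD) and the dashed line is the median. Medians are 0.45 in WSD vs C, -0.51 in T+WSD vs WSD and -0.06 in T+WSD vs C; comparisons in neighboring panels share animals.

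Testosterone in animals on the Western-style diet gave the largest median of the 5 comparisons between groups. In *T* + *WSD* against *WSD*, 37 of the 38 genes were lower and *CPT1A* was higher, with a median log2 fold change of -0.51, against -0.03 over all tested genes. *PDHB* passed the test and was a DEG, where 1.67% of all tested genes passed (0.73% higher and 0.94% lower) and 0.815% were DEGs. At an unadjusted p under 0.05, 22 genes were lower and none higher, against 12.1% of all tested genes lower and 7.9% higher. This comparison uses the *WSD* animals that also stood above *C*, and the comparisons are not independent. The median was -0.36 without *WSD* 20 and -0.42 without *WSD* 24, with 16 and 19 genes at p under 0.05. Outside the library batch it was -0.43, with 21 genes at that threshold and none past the adjusted one. The test passed no gene without *WSD* 20, *WSD* 24 or *T* + *WSD* 7, 8, 9 or 10. Without *C* 1 it passed 4 genes, without *WSD* 19, 21 or 22 it passed 5, 7 and 4, and without *T* 14 it passed 2. DESeq2 passed 7, all lower, where it passed 385 genes higher and 414 lower of 25048. The fit with the adipocyte covariate passed 19, all lower, where 158 genes passed higher and 429 lower of 15207. The fit with the mesothelial covariate passed none, with a median of -0.64, where 0 genes passed higher and 1 lower of 15207.

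All 4 genes of the pyruvate dehydrogenase complex were lower, with a median of -0.82. *PDHA1* and *PDHB* encode the subunits of its decarboxylase, *DLAT* the acetyltransferase and *DLD* the dehydrogenase that it shares with other complexes. *PDHB* lay between 74.2 and 92.3 CPM in *T* + *WSD* with a median of 80.2, and between 98.8 and 218 CPM in *WSD* with a median of 119. The *C* animals lay between 90.5 and 138 CPM (median 113) and the *T* animals between 81.3 and 128 CPM (median 99.9).

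Every *T* + *WSD* animal was therefore below every *WSD* animal for *PDHB*, but not below every *C* or *T* animal. Its log2 fold change in *T* + *WSD* against *WSD* was -0.78 ± 0.16 (SE), adjusted p = 0.0261 (edgeR), and against *C* it was -0.45 ± 0.16 (SE), adjusted p = 0.0546 (edgeR). The call against *WSD* was lost without *WSD* 20 (adjusted p = 0.0676), *WSD* 24 (0.0834), or *T* + *WSD* 7, 8, 9 or 10 (0.0595, 0.0728, 0.0505 and 0.0617), all by edgeR, with a log2 fold change of at least 0.61 in size in each. It was also lost in the fits outside the library batch, to the 2 groups alone and with the mesothelial covariate (adjusted p = 0.223, 0.0685 and 0.296 by edgeR), where the first passed 0 genes of 15448 and the last 1 of 15207. Over all alternatives other than leaving out an animal the log2 fold change was -0.84 to -0.63. The value against *C* passed in 5 of the 24 fits that left out 1 animal (without *C* 6, *T* 14 or *WSD* 19, 20 or 24).

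*PDHA1* had the largest decrease, at -1.11 ± 0.30 (SE), adjusted p = 0.0558 (edgeR), and it passed without *C* 1, *T* 14 or *WSD* 19, 21 or 22. Its levels were 82.5 to 103 CPM in *T* + *WSD* (median 88.9) and 104 to 339 CPM in *WSD* (median 152), with *WSD* 20 and 24 above 315 CPM. In *C* they were 40.6 to 163 CPM (median 125) and in *T* 99.8 to 214 CPM (median 111), so that *T* + *WSD* lay below every *WSD* animal and within *C*. Against *C* the log2 fold change was -0.35 ± 0.30 (SE), adjusted p = 0.440 (edgeR), the second largest decrease after that of *PDHB*.

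Citrate synthase (*CS*) opens the TCA cycle and is a common measure of mitochondrial content. It lay between 356 and 419 CPM in *T* + *WSD* (median 383), 441 and 1199.6 CPM in *WSD* (median 517), 464 and 637 CPM in *T* (median 496) and 188 and 646 CPM in *C* (median 492). All 6 *T* + *WSD* animals were below every *WSD* and every *T* animal, at a log2 fold change of -0.86 ± 0.25 (SE) against *WSD*, adjusted p = 0.0690 (edgeR), and the gene passed without *C* 1 or *WSD* 19 or 21. There were 4 genes with no overlap below *WSD* in this way, *PDHA1*, *PDHB*, *CS* and *OGDH*, where 1.37% of all tested genes did. *CS*, *OGDH* and *IDH1* were singled out after their values were seen.

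**Figure D4:**
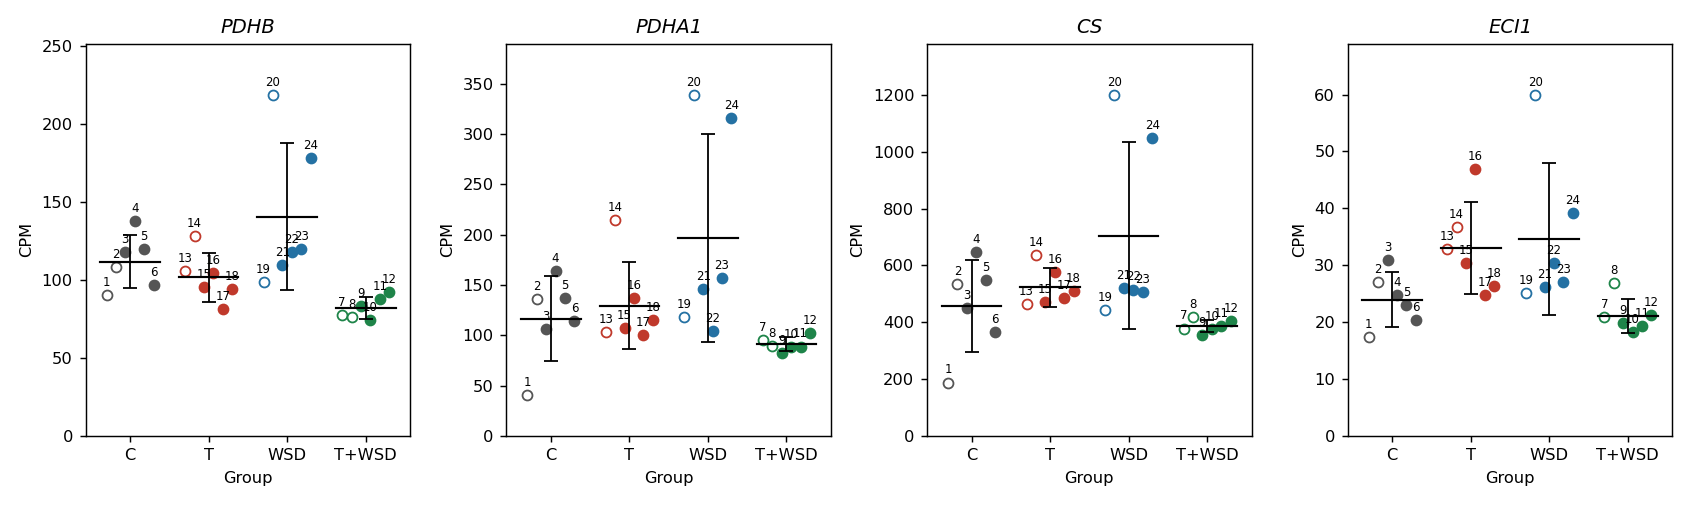
CPM of PDHB, PDHA1, CS and ECI1 in each animal (numbered points; open points are the library batch), with group means ± SD (n = 6) as lines and bars, axes from 0. PDHB in T+WSD lies between 74.2 and 92.3 CPM and in WSD between 98.8 and 218 CPM, and WSD 20 is the highest animal in each panel.

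*OGDH*, the first subunit of the 2-oxoglutarate dehydrogenase complex, lay between 286 and 324 CPM in *T* + *WSD* (median 298) and 348 and 520 CPM in *WSD* (median 379). All 5 genes of the steps from 2-oxoglutarate to succinate were lower at an unadjusted p under 0.05, with a median of -0.50, and so were the 3 fumarate and malate genes, with a median of -0.63. Among the carnitine shuttle genes this held for 1 of 4 and among the 6 genes of hydration, second oxidation and thiolysis for 1. The acyl-CoA dehydrogenases had a median of -0.50, with 2 of 3 at that threshold, the genes for unsaturated fatty acids -0.57, with 2 of 3, and the electron transfer flavoprotein genes -0.53, with 1 of 3. The 7 genes of the citrate and isocitrate steps had a median of -0.51, with 3 at that threshold. The largest of these medians, that of the pyruvate dehydrogenase complex, is a description, and the roles were not tested against each other.

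Diet in animals given testosterone, *T* + *WSD* against *T*, shares the *T* + *WSD* animals with the comparison above. In it, 3 genes were higher and 35 lower, with a median log2 fold change of -0.25, and 5 were lower at an unadjusted p under 0.05 (14.3% of all tested genes lower and 11.6% higher). That number was 9 without *T* 17 or *WSD* 20 and 2 without *T* 16 or *T* + *WSD* 9. Outside the library batch the median was -0.13, with 28 genes lower. *ECI1*, the isomerase that moves the double bond of unsaturated fatty acids so that they can be oxidized, passed and was a DEG, where 6.5% of all tested genes passed (3.3% higher and 3.2% lower) and 3.77% were DEGs. Its levels were 18.3 to 26.9 CPM in *T* + *WSD* (median 20.3), 24.7 to 46.9 CPM in *T* (median 31.6), 25.1 to 59.9 CPM in *WSD* (median 28.7) and 17.3 to 30.9 CPM in *C* (median 23.9).

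Only *T* + *WSD* 8 reached into the ranges of *T* and *WSD* for *ECI1*, and *C* overlapped *T* + *WSD* in full. The log2 fold change was -0.65 ± 0.20 (SE) against *T*, adjusted p = 0.0487 (edgeR), and -0.72 ± 0.20 (SE) against *WSD*, adjusted p = 0.0601 (edgeR). The first call was lost in 17 of the 24 fits that left out 1 animal, most without *T* 16 (-0.53, adjusted p = 0.114 by edgeR), and kept without *C* 1 or 3, *T* 17, or *WSD* 19, 20, 21 or 24. It was also lost outside the library batch (adjusted p = 0.0594), with RLE or upper-quartile scaling, without the dominant gene, and with the adipocyte or mesothelial covariate (0.0528 and 0.436), all by edgeR, at a log2 fold change of -0.97 to -0.62. *IDH1*, the cytosolic isocitrate dehydrogenase, and *CS* were the 2 genes with every *T* + *WSD* animal below every *T* animal (3.1% of all tested genes), and *IDH1* lay between 192 and 221 CPM in *T* + *WSD* and 228 and 453 CPM in *T*.

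The interaction asks whether testosterone changed a gene differently on the 2 diets. It was negative for 37 of the 38 genes, with a median of -0.69 on the log2 scale against -0.02 over all tested genes, and *ECI1* passed at -1.18 ± 0.28 (SE), adjusted p = 0.0812 (edgeR), where 0.809% of all tested genes passed and 0.289% were negative. For *ECI1*, the animals of *T* alone and of *WSD* alone stood above *C* in mean, and those with both did not. At an unadjusted p under 0.05, 27 genes were negative and none positive, against 7.26% of all tested genes negative and 6.22% positive. The median was -0.50 without *WSD* 20 and -0.46 outside the library batch, where no gene passed. The call of *ECI1* was lost in 13 of the 24 fits that left out 1 animal, at an adjusted p of up to 0.152 without *T* + *WSD* 10 (edgeR). These were the fits without *C* 1, 5 or 6, *T* 13 to 16, *WSD* 24, or *T* + *WSD* 7 or 9 to 12. *HADHA*, a subunit of the trifunctional protein, or *IDH3B*, a regulatory subunit of isocitrate dehydrogenase, passed beside *ECI1* without *C* 2, *T* 17, *WSD* 19 or *WSD* 21, and with DESeq2.

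Diet averaged over testosterone gave 29 genes higher and 9 lower, with a median of 0.11, and none passed where 11.9% of all tested genes did (5.46% higher, 6.45% lower and 5.3% as DEGs). At an unadjusted p under 0.05, 2 were higher, *IDH3A* and *ACAA1* (13.2% of all tested genes). The median was -0.08 with the adipocyte covariate and -0.00391 with the mesothelial one, with 32 and 20 genes lower. *IDH3A*, the catalytic subunit of the NAD-linked isocitrate dehydrogenase, had the smallest adjusted p, 0.0546 (edgeR), at a log2 fold change of 0.35 ± 0.12 (SE). It passed without *C* 4, *T* 14, *T* 18 or *WSD* 19, and *ACAA1* passed without *C* 2, *T* 14 or *WSD* 19. *IDH3A* had the largest increase in *T* + *WSD* against *C* too, at 0.36 ± 0.17 (SE), adjusted p = 0.142 (edgeR), and passed without *C* 4. Its levels were 66.2 to 74.7 CPM in *T* + *WSD* (median 70.3), 53.5 to 89.6 CPM in *WSD* (median 77.5), 44.5 to 79.1 CPM in *T* (median 57.5) and 37.1 to 84.8 CPM in *C* (median 50.4).

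*C* 4 was the highest *C* animal for *IDH3A* and lay above all 6 *T* + *WSD* animals, which in turn lay above the other 5. *ETFB*, a subunit of the flavoprotein that passes electrons from acyl-CoA dehydrogenases to the respiratory chain, had the second largest increase against *C*, 0.32 ± 0.17 (SE), adjusted p = 0.206 (edgeR). It lay between 130 and 193 CPM in *T* + *WSD* (median 145), 128 and 215 CPM in *WSD* (median 145), 113 and 207 CPM in *T* (median 153) and 78.2 and 159 CPM in *C* (median 127), and all 4 groups overlapped. With the adipocyte covariate its log2 fold change against *C* was -0.0541.

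The other genes of these pathways were taken from a list of 80, of which 74 were tested. In *WSD* against *C*, 66 of the 74 were higher and none passed, and 29 were higher at an unadjusted p under 0.05, where 9.59% of all tested genes were. In *T* + *WSD* against *WSD*, 69 were lower and 7 passed, all lower, where 0.94% of all tested genes did. The citrate carrier *SLC25A1*, which exports citrate for fatty acid synthesis, was at -1.70 ± 0.41 (SE), adjusted p = 0.0370 (edgeR). *MPC1*, a subunit of the mitochondrial pyruvate carrier, was at -1.55 ± 0.36 (SE), adjusted p = 0.0370 (edgeR).

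Both carriers were highest in *WSD* 24. *MPC1* lay between 12.2 and 20.8 CPM in *T* + *WSD* and 21.7 and 113 CPM in *WSD*, and these groups did not overlap. *SLC25A1* lay between 65.0 and 140 CPM in *T* + *WSD* and 109 and 668 CPM in *WSD* and overlapped. The other genes that passed were the dicarboxylate carrier *SLC25A10* (-1.08), the outer membrane import pore *TOMM40* (-0.63), *VDAC2* (-0.56) and the succinate dehydrogenase subunits *SDHA* (-0.73) and *SDHD* (-0.67), the last 3 named after their values were seen. Outside the library batch, none of the 74 passed in this comparison, as none of the 15448 genes tested there did, and 31 had an unadjusted p under 0.05. None passed without *WSD* 20, *WSD* 24 or any 1 of *T* + *WSD* 7 to 11, 1 passed without *C* 2 or *WSD* 23, and 2 without *T* + *WSD* 12. Without *WSD* 19 or 21, 12 and 16 passed.

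*SLC25A13*, a mitochondrial aspartate-glutamate carrier, went the other way. It lay between 20.5 and 27.4 CPM in *T* + *WSD*, above every *C* animal (14.1 to 20.4 CPM) and every *T* animal (14.1 to 19.7 CPM), and overlapped *WSD* (16.3 to 23.7 CPM). Its log2 fold change was 0.48 ± 0.10 (SE) against *C*, adjusted p = 0.00577, and 0.57 ± 0.10 (SE) against *T*, adjusted p = 0.00566, both by edgeR, and both calls held in all 24 fits that left out 1 animal. The call against *C* was lost outside the library batch (adjusted p = 0.0607) and with the adipocyte covariate (0.273), and both were lost with the mesothelial covariate (0.999 and 0.493), all by edgeR. With the mesothelial covariate no gene of the 15207 passed in either comparison, and over all alternatives the log2 fold change was 0.31 to 0.51 against *C* and 0.43 to 0.67 against *T*. Against *C* it was the only gene of the 74 that was higher past the threshold. *ACSL4*, which activates polyunsaturated fatty acids such as arachidonate, was lower by 0.66 (adjusted p = 0.0269, edgeR). The call of *ACSL4* was lost without *C* 1, *C* 3 or *T* + *WSD* 7, 8 or 10, outside the library batch and with the adipocyte covariate. With the mesothelial covariate its log2 fold change was 0.00803. The mesothelial sum itself differed between these groups (231 to 3014 CPM in *T* + *WSD*, 2691 to 38604 CPM in *C*). That fit therefore cannot tell group and mesothelial content apart, and the cause was not tested.

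Against *T*, the branched-chain acyl-CoA dehydrogenase *ACADSB* fell by 0.54 and the ketone body dehydrogenase *BDH1* by 1.41 in *T* + *WSD* (adjusted p = 0.0331 and 0.0239, edgeR). The first call was lost without *T* 16, *T* 18 or *T* + *WSD* 7, 8, 9, 10 or 12 and the second without *T* 16 or *T* + *WSD* 8, 9 or 10, and both were lost outside the library batch and with the mesothelial covariate (*BDH1* also with the adipocyte covariate), at log2 fold changes of -0.75 to -0.50 and -1.44 to -1.37 over the alternatives. For diet averaged over testosterone, 7 of the 74 genes were higher past the threshold, where 5.46% of all tested genes were. They were *ACSL6* and *ACSL3* (1.04 and 0.76), which activate fatty acids, and the peroxisomal *DECR2* and *ABCD3* (0.52 and 0.30). The others were *SLC25A13* (0.43) and the mitochondrial import and protease genes *TIMM23* and *LONP1* (0.40 and 0.29). The interaction passed for *VDAC2*, at -0.78. No pathway gene passed in the interaction with RLE or upper-quartile scaling, without a filter, outside the library batch, or when 1 animal other than *C* 2, *C* 4, *T* 13, *T* 17 or *WSD* 19, 21 or 23 was left out. With either marker covariate, 0 of all 15207 genes passed for diet. Outside the library batch 4 of the 74 genes passed, and without *T* 17 only 2 of the 74 genes passed.

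None of the 9 regulators of the pathway passed in any of the 8 comparisons, although *PPARGC1A* was lower past the threshold in *T* + *WSD* against *WSD* with the adipocyte covariate (adjusted p = 0.0343, edgeR). *PPARA*, the nuclear receptor that drives fatty acid oxidation genes, lay between 44.2 and 66.4 CPM in *T* + *WSD* (median 53.2), 48.5 and 204 CPM in *WSD* (median 69.3), 61.1 and 145 CPM in *T* (median 75.4) and 43.4 and 73.2 CPM in *C* (median 55.5). *PPARGC1A*, a coactivator of mitochondrial genes, lay between 12.3 and 19.2 CPM in *T* + *WSD* (median 17.2), 18.8 and 78.1 CPM in *WSD* (median 24.3), 13.1 and 33.0 CPM in *T* (median 20.1) and 7.37 and 29.9 CPM in *C* (median 22.2). Both were highest in *WSD* 20, with *T* 14 the highest *T* animal.

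*PDK4*, the kinase that switches off pyruvate dehydrogenase when fat is burned, was at 1377 CPM in *WSD* 20 and at most 306 CPM in the other *WSD* animals. It lay between 121 and 331 CPM in *T* + *WSD* (median 140), 173 and 379 CPM in *T* (median 295) and 95.1 and 337 CPM in *C* (median 227). In *T* + *WSD* against *WSD*, the log2 fold change was -0.77 ± 0.28 (SE) for *PPARA*, -0.99 ± 0.33 (SE) for *PPARGC1A* and -1.17 ± 0.49 (SE) for *PDK4*, with adjusted p = 0.124, 0.0984 and 0.179 (edgeR). For *PDK4* it was 0.03 outside the library batch and -0.20 without *WSD* 20.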

How the data were processed

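The authors trimmed 100-bp single reads from ribosome-depleted RNA with Trimmomatic 0.36, aligned them to rheMac8 with STAR 2.5.2b and deposited a table of raw, unscaled counts for each gene and animal (24 columns). They tested them with DESeq2 1.18.1. The counting tool and its strand setting are not given in the sources used here, so reads shared between overlapping or duplicated genes may be split in unknown ways. Groups came from the labels, and 0 of 60 pairs of libraries within groups were identical.

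Here the counts were filtered with filterByExpr (minimum count 10, minimum total 15), scaled by TMM and tested in edgeR 4.0.16 under R 4.3.3 (glmQLFit with robust=TRUE and legacy=TRUE, glmQLFTest, two-sided) in 1 fit with 4 groups and 8 contrasts. Values per animal are CPM, and means over genes used log2 CPM with a prior count of 2. The test was tested on simulated counts. Genes given in full are the members that passed in a contrast, any with no overlap between a treated group and *C*, and, in *T* + *WSD* against *C*, the top 2 increases and top 2 decreases. Of the pathway genes, up to 3 that passed per list, with *PPARA*, *PPARGC1A* and *PDK4*, are named, except 1 that is not reported here. The members, lists and tests were chosen with earlier results of these data known. SDs are the spread between the animals of a group. SEs rest on 1 estimate of the spread between animals per gene, shared by all 4 groups. The limit for a count of 0 covers counting error only. Alternatives were DESeq2 1.42.0, other scalings, filters and fits, the library batch, marker covariates and leaving out each animal. Gene levels were not compared with each other, since transcript lengths were not used here.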

Additional observations from a re-analysis of the deposited data

Results flagged for a closer look

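Within groups of 6 animals, each gene and the mean level of the members were examined for an animal far from the rest. Of 156 such checks, 9 were flagged, close to the number that chance gives at about 1 in 20. *C* 1 was far below the other *C* animals for *DLD* (70.2 CPM against 141 to 183), *FH* (48.2 CPM against 89.0 to 107) and *MDH1* (107 CPM against 225 to 276). *T* 14 was far above the other *T* animals for *HADHA* (398 CPM), *PDHA1* (214 CPM), *DLST* (217 CPM) and *MDH2* (388 CPM). *WSD* 20 was far above the other *WSD* animals for *ACADVL* (717 CPM against 265 to 417). *T* + *WSD* 8 was far above its group for *ECI1* (26.9 CPM against 18.3 to 21.2). All 4 animals are in the library batch. The effect of testosterone on *ECI1* differed between the diets, by an interaction of -1.18 on the log2 scale.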

How the results depend on the processing

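No paired analysis was possible because the 4 groups share no animal number. Members that passed, by alternative: DESeq2 gave 1 in *WSD* against *C*, 7 in *T* + *WSD* against *WSD*, 2 for diet, 1 for testosterone and 3 in the interaction. Over all 25048 genes, DESeq2 passed 188 higher and 201 lower in *WSD* against *C*, and 385 and 414 in *T* + *WSD* against *WSD*. The fit to the compared groups alone gave 1 against *C*, 0 against *WSD* and 4 against *T* in *T* + *WSD*. Libraries outside the batch gave 0 against *WSD*, 0 against *T* and 0 in the interaction. The mesothelial covariate gave 0 against *WSD* and 0 against *T*, and the adipocyte covariate gave 19 against *WSD*, 6 in the interaction and a median of -0.39 against *C*. With the adipocyte covariate, 158 of all 15207 genes passed higher and 429 lower against *WSD*. RLE and upper-quartile scaling, or leaving out the dominant gene, gave 0 against *T* and 1 for diet, at least 10 counts per animal gave 1 against *C* and 1 for diet, and legacy=FALSE gave 1 against *C*, 2 against *WSD* and 1 for diet. Leaving out 1 animal gave 0 to 7 members against *WSD*, 0 to 1 against *T*, 0 to 1 against *C*, 0 to 1 in *WSD* against *C*, 0 to 2 for diet and 0 to 3 in the interaction, with medians of -0.59 to -0.36 against *WSD*, -0.13 to 0.06 against *C*, -0.29 to -0.15 against *T*, 0.30 to 0.55 in *WSD* against *C*, 0.11 to 0.27 in *T* against *C*, 0.05 to 0.16 for diet, -0.20 to -0.04 for testosterone and -0.78 to -0.50 in the interaction.

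Pathway genes that passed were 6 in *WSD* against *C*, 15 in *T* + *WSD* against *WSD*, 2 for testosterone and 7 in the interaction with DESeq2. Against *WSD* they were 2 with upper-quartile scaling, 1 without a filter, 0 with the compared groups alone, outside the batch or with the mesothelial covariate, and 24 with the adipocyte covariate. Against *C* they were 0 outside the batch and with either covariate, against *T* 12, 2 and 0 with the compared groups, outside the batch and with the mesothelial covariate, and for diet 3 without a filter, 4 outside the batch and 0 with either covariate. In the interaction they were 0 with RLE, upper-quartile scaling, no filter or outside the batch, 2 with at least 10 counts, the mesothelial covariate or legacy=FALSE, and 5 with the adipocyte covariate. Leaving out 1 animal gave 1 to 6 against *C*, 0 to 16 against *WSD*, 1 to 6 against *T*, 0 to 2 in *WSD* against *C*, 2 to 10 for diet and 0 to 9 in the interaction. Directions turned for *ETFB* in *T* + *WSD* against *C* with the adipocyte covariate (-0.0541), *ACSL4* in the same comparison with the mesothelial covariate (0.00803) and *PDK4* against *WSD* outside the batch (0.0296). The causes were not tested. Each group had 6 animals, and 2 of each group's libraries gave part of their depth to a single gene.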
